A study of Mus musculus with 4 samples.

Results

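10 genes of Wnt signalling were followed in mouse fibroblast lines: the secreted antagonists Sfrp1, Sfrp2, Dkk2, Dkk3 and Wif1, the ligands Wnt5a, Wnt10a and Wnt10b, the intracellular inhibitor Nkd2 and the feedback target Axin2. They were chosen as Wnt ligands that act on preadipocytes, secreted inhibitors and feedback targets, and all 10 were found among the 18193 named genes of the arrays, with 22 probe sets. A probe set is a group of short probes that together give 1 signal for a transcript, and the probe set with the highest mean signal stood for its gene. RNA of wild-type 3T3-MEFs went onto 2 Affymetrix arrays of 1 colour, and RNA of SMRTmRID 3T3-MEFs onto 2 more. These are permanent lines grown from mouse embryonic fibroblasts by serial passage, and both genotypes were collected at confluence without an adipogenic stimulus. SMRT silences genes as a corepressor bound to nuclear receptors, and in the mRID form the domains that contact those receptors are mutated. The labels call the 2 arrays of a genotype technical replicates and name neither the repeated step nor the number of lines or embryos, so the p-values rest on the spread between arrays that may share 1 RNA source. A difference between these lines therefore cannot be told apart from a difference between the genotypes.

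Wnt proteins are secreted, lipid-modified ligands that bind Frizzled receptors with the co-receptors Lrp5 or Lrp6. In the canonical branch the signal stabilises beta-catenin, which enters the nucleus, joins TCF/LEF factors and switches on targets that include feedback inhibitors such as Axin2. Secreted frizzled-related proteins (Sfrp) and Wif1 bind the ligands outside the cell, while Dickkopf proteins such as Dkk2 act on Lrp5 and Lrp6. In preadipocytes, Wnt10b and Wnt10a hold back adipocyte differentiation, and Wnt5a signals mainly through branches that do not need beta-catenin.

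The Wnt genes of the set moved in both directions, and Dkk3 was the only tested secreted antagonist that was lower. In SMRTmRID cells Sfrp1, Sfrp2 and Nkd2 were higher, by 5.06, 3.51 and 2.86 on the log2 scale, and Wnt10a, Dkk3 and Wnt10b were lower, with log2 differences of -3.81, -2.24 and -0.57. Wnt5a did not pass the test. Wif1 and Axin2 had lower signals in SMRTmRID on both arrays but lay under the filter on mean signal and were not tested, and Dkk2 was near the bottom of the signal range in both genotypes. Differences were computed on log2(signal + 16) and run from wild-type to SMRTmRID, so a positive value means a higher signal in SMRTmRID. The added 16 shrinks changes of weak signals. A gene was tested when its mean signal over the 4 arrays was above 35.1, the median of all signals, and called at an adjusted p under 0.05 (limma, Benjamini-Hochberg over 11056 genes).

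Of the 7 genes that were tested, 3 were called higher, 3 lower and 1 was not called, and 5 of the calls were at least 2-fold. Across all tested genes 65.2% were called, 30.3% as higher and 35.0% as lower, and 16.5% were called and at least 2-fold different. The 2 arrays of one genotype did not overlap those of the other for 6 of these 7 genes, against 81.5% of all tested genes. The filter bears on these counts. Sfrp1 and Nkd2 had mean signals under it in wild-type and entered through the SMRTmRID arrays, and Wnt10a entered through the wild-type arrays.

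**Figure D1:**
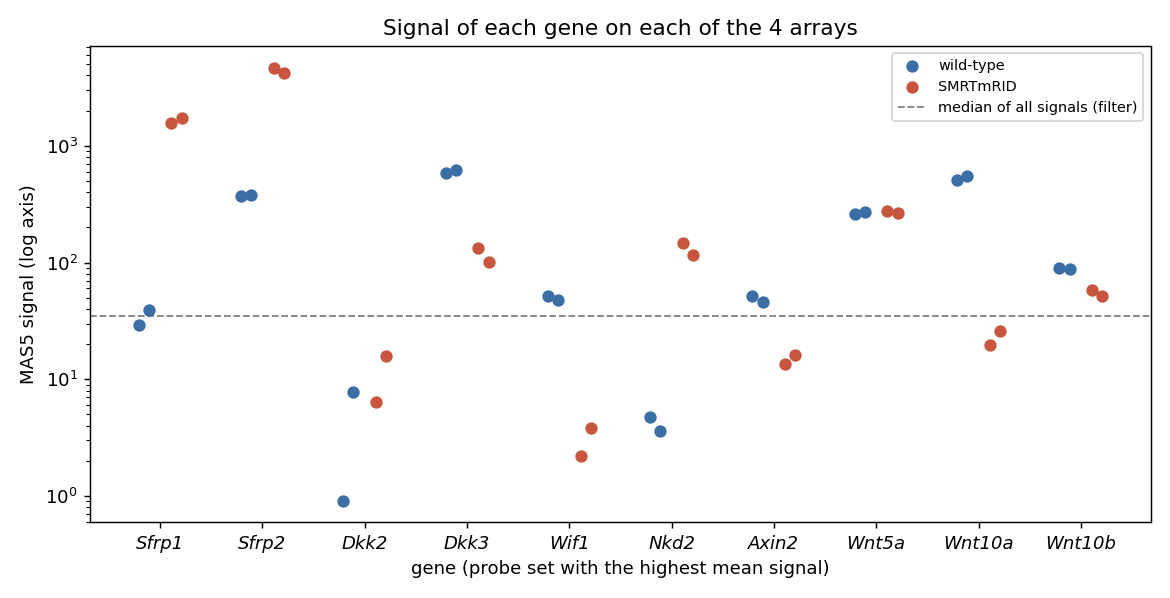
MAS5 signal (log axis) of each of the 10 genes on the 2 wild-type and 2 SMRTmRID arrays, 1 point per array, with the filter of 35.1 as a dashed line. The arrays of the genotypes are apart for 8 of the 10 genes (64.8% of all named genes) and overlap for Dkk2 and Wnt5a, and levels of different genes cannot be compared because their probes differ.

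The 250 bases before the transcription start are shown for 3 of the genes, Sfrp2 and Nkd2, which rose together, and Axin2, the standard readout of canonical signalling. They come from RefSeq with build GRCm38.p6, which held a window for 6 of the 10 genes, and CpG dinucleotides are in capitals. Sfrp2 lies at chr3:83766071-83766320 on the + strand, Nkd2 at chr13:73847632-73847881 on the - strand and Axin2 at chr11:108920099-108920348 on the + strand.
Sfrp2: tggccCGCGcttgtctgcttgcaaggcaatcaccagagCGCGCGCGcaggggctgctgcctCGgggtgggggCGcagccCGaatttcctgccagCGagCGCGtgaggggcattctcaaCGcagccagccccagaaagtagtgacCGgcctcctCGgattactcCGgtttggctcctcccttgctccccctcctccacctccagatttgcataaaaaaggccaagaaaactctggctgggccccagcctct
Nkd2: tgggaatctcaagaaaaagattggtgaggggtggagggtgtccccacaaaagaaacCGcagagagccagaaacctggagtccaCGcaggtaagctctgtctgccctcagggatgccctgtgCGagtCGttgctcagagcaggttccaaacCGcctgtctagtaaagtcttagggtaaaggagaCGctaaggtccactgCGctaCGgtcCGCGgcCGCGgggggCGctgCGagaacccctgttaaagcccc
Axin2: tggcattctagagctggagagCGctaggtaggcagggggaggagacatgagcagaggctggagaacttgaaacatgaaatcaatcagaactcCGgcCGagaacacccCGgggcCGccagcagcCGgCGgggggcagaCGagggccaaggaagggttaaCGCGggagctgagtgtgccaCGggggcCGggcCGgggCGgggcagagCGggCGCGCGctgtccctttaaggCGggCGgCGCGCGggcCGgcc
The printed stretches hold 16, 14 and 24 CpG dinucleotides for Sfrp2, Nkd2 and Axin2. In the whole 300-base windows, which run 50 bases past the start, the counts were 22, 26 and 31, against a median of 7 over 32841 mouse windows. At least as many were found in 23.1%, 16.9% and 10.6% of those windows. The TCF/LEF core CTTTGA, searched on both strands, was in none of the 6 windows (Sfrp2, Dkk2, Wif1, Nkd2, Axin2, Wnt10b) and in 16% of all windows. The nuclear receptor motif AGGTCA, also searched on both strands, was in none of the 6 and in 16.3% of all. That says only that these letters do not occur in these short windows.

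Sfrp1 encodes a secreted protein with a Frizzled-like domain that binds Wnt ligands. The wild-type arrays read 29.1 and 39.0 and the SMRTmRID arrays 1568 and 1736. Both SMRTmRID arrays were far above both wild-type arrays, which sat around the filter. The log2 difference was 5.06 ± 0.12 (SE, n = 2 arrays per genotype; limma, adjusted p = 1.50e-09), the 15th highest among the 11056 tested genes. Each of the 5 Sfrp1 probe sets was higher in SMRTmRID without overlap (59.9% of all probe sets did not overlap), with log2 differences between 2.47 and 5.06. The name of the probe set at 2.47 marks it as holding probes that can bind other transcripts. In a fit of all 22478 probe sets above the filter, 59.5% were called, and the 5 had adjusted p-values of at most 7.93e-06 (limma). Besides the brightest probe set, those reading 9.81 and 24.4, and 24.6 and 16.4, in wild-type passed the filter only through the SMRTmRID arrays.

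Sfrp2 encodes a related antagonist made by many fibroblasts. Its single probe set gave 372 and 378 on the wild-type arrays and 4672 and 4215 on the SMRTmRID arrays. Unlike Sfrp1, it was well above the filter on every array. The mean signal went from 375 ± 3.69 to 4443 ± 323 (SD), an 11.9-fold ratio, and the log2 difference of 3.51 ± 0.06 (SE; limma, adjusted p = 2.58e-10) was the 59th highest of the tested genes.

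Dkk3, a secreted Dickkopf-related protein whose effect on Wnt signalling varies with the cell type, went the other way. Its signal was 588 and 624 on the wild-type arrays and 133 and 101 on the SMRTmRID arrays. Both SMRTmRID arrays were below both wild-type arrays and above the filter. The mean was 5.18-fold higher in wild-type, with a log2 difference of -2.24 ± 0.12 (SE; limma, adjusted p = 3.49e-07), the 110th lowest of the tested genes. A second Dkk3 probe set gave a log2 difference of -1.88 with adjusted p = 2.22e-06 (limma, all probe sets).

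Wif1 encodes a secreted protein that binds Wnt ligands directly. It gave 51.4 and 47.8 on the wild-type arrays and 2.18 and 3.84 on the SMRTmRID arrays, from 1 probe set. The wild-type arrays were above the filter and the SMRTmRID arrays near the bottom of the range, so the mean over 4 arrays, 26.3, left it untested. Its log2 difference was -1.79, and it was called in a fit without the filter (adjusted p = 0.00149 by limma, where 37.6% of 18193 genes were called). Because its SMRTmRID signal is so low, that value depends on the added constant: it was -3.69 with 1 and -0.76 with 64.

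Dkk2, an antagonist that acts through the Lrp co-receptors, read 0.914 and 7.80 on the wild-type and 6.45 and 15.7 on the SMRTmRID arrays. The genotypes overlapped and every array was under the filter. Without the filter its log2 difference of 0.41 was not called (adjusted p = 0.325 by limma).

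Nkd2 encodes a cytoplasmic protein that binds Dishevelled and dampens Wnt signals. On its brightest probe set the signal was 4.77 and 3.61 on the wild-type arrays and 147 and 116 on the SMRTmRID arrays. The wild-type arrays were near the bottom of the range and both SMRTmRID arrays above the filter. The log2 difference was 2.86 ± 0.26 (SE; limma, adjusted p = 8.79e-06). It was 4.67 with an added constant of 1, 1.51 with 64 and 1.69 for the mean of all its probe sets, and was called each time. A second tested Nkd2 probe set, with 8.98 and 4.55 against 89.8 and 118, was also called higher. Like the first, it passed the filter only through the SMRTmRID arrays. Of the remaining pair, under the filter, one was higher in SMRTmRID without overlap, at 3.64 and 3.97 against 32.9 and 46.3. The other was flat at 26.9 and 25.7 against 28.6 and 25.3, and its name marks it as holding probes that can bind other transcripts.

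Axin2 encodes a scaffold of the beta-catenin destruction complex and is itself switched on by canonical Wnt signalling. Its brighter probe set gave 52.2 and 45.9 on the wild-type arrays and 13.6 and 16.2 on the SMRTmRID arrays. Both wild-type arrays were above both SMRTmRID arrays, which were under the filter, and the mean of 32.0 left the gene untested. The log2 difference was -1.07, and the gene was called without the filter (adjusted p = 0.0178 by limma). The value was -1.66 with an added constant of 1 and -0.52 with 64. The dimmer probe set overlapped between genotypes, at 6.07 and 10.8 against 7.83 and 2.48, and the mean over both probe sets gave -0.64.

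**Figure D2:**
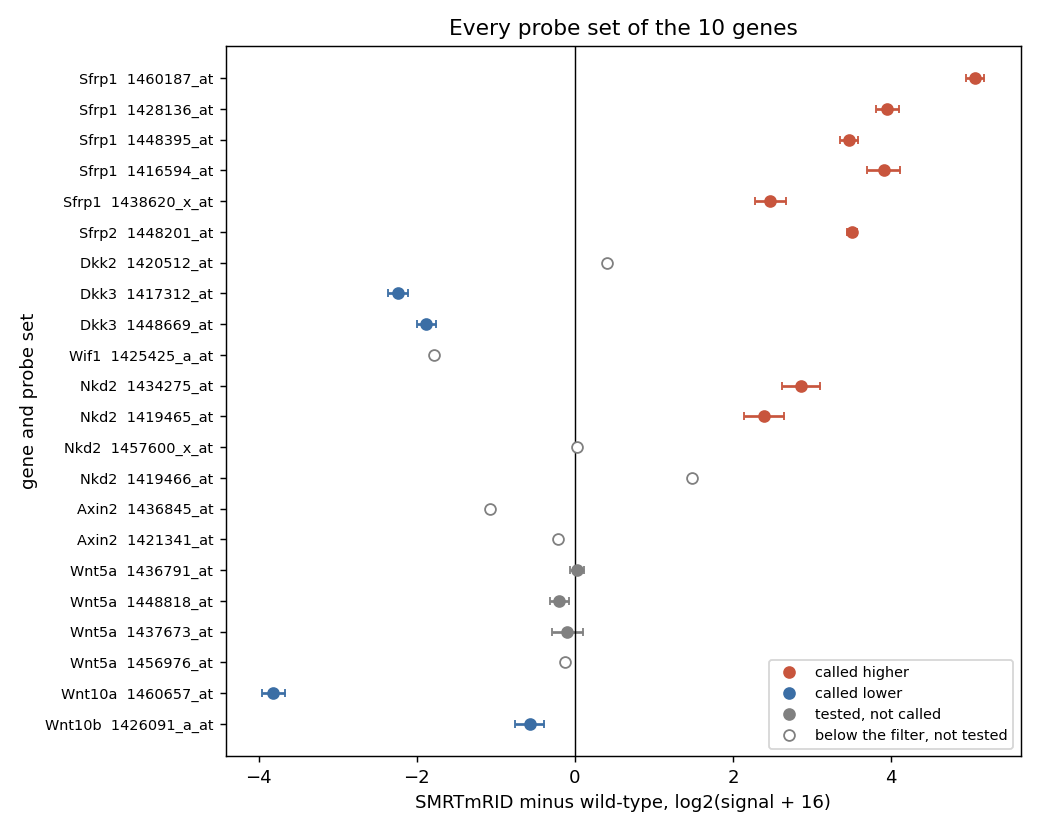
Log2 difference, SMRTmRID minus wild-type, of each of the 22 probe sets of the 10 genes, with bars of 1 SE for the 15 that were tested and open circles for those under the filter. Of the 15, 8 were called higher (Sfrp1, Sfrp2, Nkd2), 4 lower (Dkk3, Wnt10a, Wnt10b) and 3 not called (all Wnt5a). Across all 22478 tested probe sets 59.5% were called. Of the 8 called higher, 5 belong to Sfrp1, and some passed the filter only through the SMRTmRID arrays.

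Among the ligands, Wnt10a changed most. Its 1 probe set gave 508 and 551 on the wild-type arrays and 19.7 and 26.1 on the SMRTmRID arrays. Both wild-type arrays were well above the filter and both SMRTmRID arrays below it. The log2 difference was -3.81 ± 0.15 (SE; limma, adjusted p = 3.62e-08), the 21st lowest of 11056.

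Wnt10b, the best studied Wnt inhibitor of adipogenesis, was 89.3 and 88.7 on the wild-type arrays and 58.0 and 51.4 on the SMRTmRID arrays. The arrays did not overlap, and the wild-type mean was 1.63-fold the SMRTmRID mean. Its log2 difference of -0.57 ± 0.19 (SE) had adjusted p = 0.0230 (limma). This call was lost without wild-type replicate 1 (adjusted p = 0.0789), wild-type replicate 2 (0.0787) or SMRTmRID replicate 2 (0.0844), and without the filter (0.0734), all by limma.

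Wnt5a had nearly equal signals, 260 and 269 on the wild-type arrays and 275 and 263 on the SMRTmRID arrays. The genotypes overlapped, and the log2 difference was 0.02 ± 0.09 (SE; limma, adjusted p = 0.837). Its sign turned to -0.06 with quantile normalization. Its 4 probe sets gave log2 differences between -0.20 and 0.02, and none of the 3 tested was called. The probe set at -0.20 read 232 and 249 against 188 and 229 in SMRTmRID, without overlap (adjusted p = 0.185 by limma, all probe sets).

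**Figure D3:**
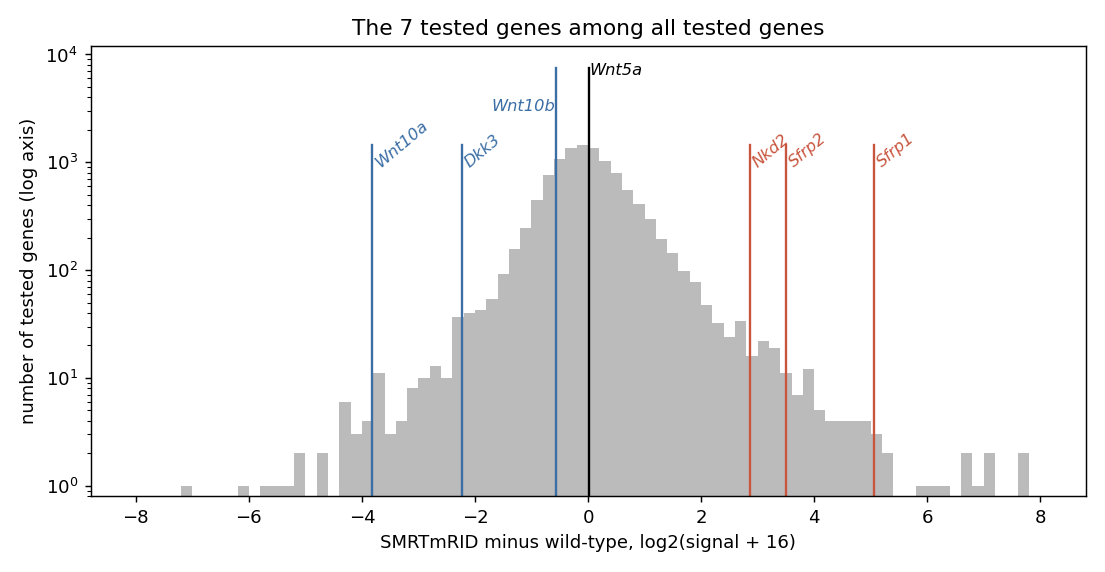
Histogram of the log2 differences of the 11056 tested genes (log axis of gene counts), with lines at the 7 tested genes of the set. Sfrp1 lies in the upper tail with 14 genes above it, Wnt10a in the lower tail with 20 genes below it, and Wnt5a at the centre, near the median of all genes of -0.05.

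The genes whose 4 values were most like those of Sfrp1 and Wnt10a were found by the largest gap on any array between log2 values centred on each gene's mean. For Sfrp1 these were Shox2, Zic1 and Ptprz1, with largest gaps of 0.10, 0.21 and 0.24 and log2 differences of 5.10, 4.94 and 4.89. For Wnt10a they were Cdh13, Col11a1 and Ifi202b, with gaps of 0.09, 0.09 and 0.15 and log2 differences of -3.81, -3.74 and -3.77. With 4 arrays such likeness reflects little more than the size of the genotype difference.

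The rest of the pathway was described from lists by role that leave out these 10 genes. Named probe sets existed for 111 of 113 symbols. The filter left 80 of them, of which 33 were called higher, 27 lower and 20 not called. That is 75% called, beside 65.2% of all tested genes, and the median log2 difference was 0.12 beside -0.05. For the mean of all probe sets 61.3% of 75 pathway genes were called, beside 59.2% of all tested genes. The lists were chosen with earlier results of these data known. The lists went both ways, as the plot of differences by role shows.

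Of 7 other tested ligands 3 were lower and none was called higher, with a median of -0.28. That is 42.9% called, beside 65.2% of all tested genes, of which 35.0% were called lower. Wnt11 read 123 and 118 on the wild-type and 19.5 and 58.7 on the SMRTmRID arrays, which gives -1.41 on the log2 scale. Its SMRTmRID arrays were far apart, and without replicate 1 the difference was -0.87. Wnt5b, the close relative of Wnt5a, went from 81.3 ± 3.85 to 25.6 ± 1.98 (SD), a log2 difference of -1.22, and Wnt6 had -0.78. Wnt5b passed the filter only through the wild-type arrays, and the name of its probe set marks probes that can bind other transcripts. The Wnt6 call was lost without wild-type replicate 1 (adjusted p = 0.102), wild-type replicate 2 (0.0571) or SMRTmRID replicate 2 (0.165, log2 difference -0.41; limma). Wnt4, Wnt7a, Wnt7b and Wnt9a were not called, and 9 further ligands, among them Wnt3a at 46.5 and 40.4 against 8.92 and 17.8, were under the filter. In the fit without the filter only Wnt3a of these 9 was called, as lower (adjusted p = 0.0299 by limma).

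All 3 genes that handle the ligand were called, where 65.2% of all tested genes were called. Porcn, which attaches the lipid to Wnt proteins, rose by 0.82. Wls, which carries the ligand to the cell surface, fell by 0.29 on the log2 scale, and lost its call for the mean of its probe sets (adjusted p = 0.433 by limma). Notum, a secreted enzyme that removes the lipid and is also on the target list, was 54.8 and 17.0 on the wild-type arrays and 67.3 and 81.6 on the SMRTmRID arrays, a log2 difference of 0.90. The wild-type arrays of Notum disagreed, and its call was lost without wild-type replicate 2, at 0.35 (adjusted p = 0.271), SMRTmRID replicate 1 (adjusted p = 0.0661) or SMRTmRID replicate 2 (0.151). Without wild-type replicate 1 the difference was 1.45 (limma).

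Of 6 other tested antagonists 3 were higher and 1 lower, or 66.7% called beside 65.2% of all tested genes. Igfbp4, a binding protein of insulin-like growth factors that can also block Wnt receptors, fell from 6804 ± 186 to 978 ± 38.7 (SD), a log2 difference of -2.78. Apcdd1, a membrane inhibitor, rose by 0.55 and Tpbg, which hinders Lrp6, by 0.30, or by 0.32 and 0.60 for the mean of their probe sets. The name of the brightest Apcdd1 probe set marks probes that can bind other transcripts. Frzb, a further Sfrp family member, rose by 0.70 from a low level, 21.0 and 27.5 against 42.1 and 57.1. It passed the filter only through the SMRTmRID arrays. The Frzb call (adjusted p = 0.0480) was lost when any 1 array was left out (adjusted p = 0.151 and 0.0642 without wild-type replicates 1 and 2, 0.0675 and 0.263 without SMRTmRID replicates 1 and 2) and with median centring (0.0510; limma). Tpbg lost its call without wild-type replicate 1 (0.20, adjusted p = 0.0644). Sfrp4 and Kremen1 were not called, and Dkk1, Dkk4 and Sfrp5 were among the 7 under the filter. Of these 7 only Dkk4 and Dkkl1 were called without the filter, both higher (adjusted p = 0.0186 and 0.0371 by limma). Both had very low signals, at most 17.2 and 16.1 on any array.

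Of 14 tested receptors and co-receptors 4 were higher, 3 lower and 7 not called, with a median of 0.05. That is 50% called, beside 65.2% of all tested genes. The co-receptor gene Lrp6 rose from 393 ± 5.39 to 856 ± 12.0 (SD), a log2 difference of 1.09. Ptk7, a co-receptor of the planar polarity branch, and Fzd8 rose by 1.04 and 0.87. Fzd6 fell from 363 ± 4.79 to 117 ± 0.0651 (SD), a log2 difference of -1.51, which was -0.74 for the mean of its probe sets. Fzd2 and Fzd1 had small differences of -0.18 and -0.16. For the mean of all probe sets Fzd2 turned to 0.03 and Fzd1 was not called (adjusted p = 0.236). Fzd1 was also lost without wild-type replicate 2 (0.0998) or SMRTmRID replicate 2 (0.0660), and Fzd2 without SMRTmRID replicate 2 (0.0641; limma).

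R-spondins are secreted proteins that strengthen Wnt signals through the Lgr receptors, by removing the ubiquitin ligases Rnf43 and Znrf3 that take Frizzled off the surface. Rspo3 was 9.65 and 11.7 on the wild-type arrays and 178 and 174 on the SMRTmRID arrays, a log2 difference of 2.85 ± 0.21 (SE; limma, adjusted p = 2.24e-06). Rspo2 did not pass, at 1752 and 1747 against 1846 and 1799. Rnf43 was 109 and 102 on the wild-type arrays and 2.17 and 1.05 on the SMRTmRID arrays, a log2 difference of -2.79 ± 0.28 (SE; limma, adjusted p = 1.64e-05). Neither Rspo3 nor Rnf43 overlapped between genotypes, beside 81.5% of all tested genes without overlap. Rspo3 passed the filter only through the SMRTmRID arrays, and Rnf43 only through the wild-type arrays. Znrf3, the paralogue of Rnf43, was higher by 0.48 and Lgr4 by 0.43. The Znrf3 call was lost without wild-type replicate 1 (0.48), wild-type replicate 2 (0.47) or SMRTmRID replicate 1 (0.40, log2 differences). It was also lost with quantile normalization (adjusted p = 0.0961) and without the filter (0.0659; limma). For the mean of their probe sets neither Znrf3 (adjusted p = 0.280) nor Lgr4 (0.507) was called by limma. With other constants or probe-set means the difference of Rspo3 was between 1.55 and 3.93 and that of Rnf43 between -5.38 and -1.37, called each time.

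Of 16 tested cytoplasmic transducers 8 were higher and 6 lower, mostly by less than 2-fold. That is 87.5% called, beside 65.2% of all tested genes. Apc, a scaffold of the destruction complex, rose by 1.15, the tankyrase gene Tnks by 0.85 and the Dishevelled binder Dact1 by 0.63. The beta-catenin inhibitor Ctnnbip1, the kinase gene Gsk3a and Dvl1 had log2 differences of -0.61, -0.55 and -0.39. For the mean of their probe sets Tnks was at 0.47, Ctnnbip1 at -0.22 and Dvl1 at -0.83, all still called. Gsk3a had 1023 and 634 in wild-type, and its call was lost without wild-type replicate 1, at -0.21 (limma, adjusted p = 0.0543), and without SMRTmRID replicate 1 (adjusted p = 0.0523). Without wild-type replicate 2 it was -0.89.

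Among 12 tested nuclear effectors 6 were higher and 3 lower, or 75% called beside 65.2% of all tested genes. The Groucho-type corepressor genes, whose proteins silence TCF/LEF targets, split. Tle1 fell from 606 ± 10.4 to 65.0 ± 3.29 (SD), a log2 difference of -2.94 ± 0.10 (SE; limma, adjusted p = 2.27e-08), while Tle2 and Tle3 rose by 1.11 and 0.58 (Tle3 by 0.32 for the mean of its probe sets). The TCF gene Tcf7l1 rose by 0.59, and the beta-catenin cofactor genes Bcl9l and Pygo2 had -0.55 and -0.30. Bcl9l was not called for the mean of its probe sets (adjusted p = 0.206 by limma). Each of the 8 tested planar polarity genes was called, 4 in each direction, where 65.2% of all tested genes were called. Prickle1, Daam2 and Daam1 rose by 2.03, 1.28 and 0.70, and Celsr2, Scrib and Vangl2 had log2 differences of -1.83, -0.74 and -0.53. For the mean of their probe sets Prickle1 was at 0.92, still called, and Daam1 (adjusted p = 0.203) and Vangl2 (0.0514) were not called by limma.

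**Figure D4:**
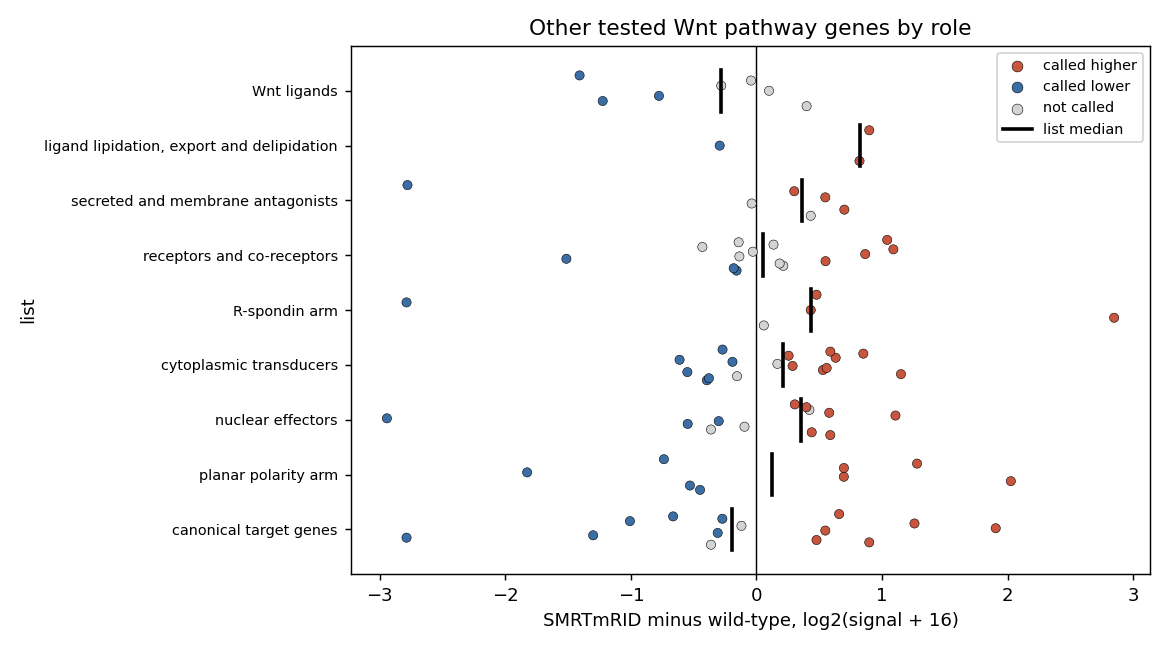
Log2 difference, SMRTmRID minus wild-type, of each tested pathway gene outside the set of 10, by list, coloured by call, with the list median as a black bar. List medians lie between -0.28 (Wnt ligands) and 0.82 (ligand handling, 3 genes), and single genes between -2.94 (Tle1) and 2.85 (Rspo3).

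Target genes of canonical signalling did not move one way. Of 14 tested besides Axin2, 6 were higher, 6 lower and 2 not called, with a median of -0.20. That is 85.7% called, beside 65.2% of all tested genes. Bambi, which encodes a decoy receptor of TGF-beta signals, rose from 77.7 ± 6.50 to 339 ± 77.8 (SD), a log2 difference of 1.91, and the matricellular gene Ccn4 by 1.26. The G1 cyclin gene Ccnd1 fell from 2382 ± 155 to 956 ± 8.22 (SD), a log2 difference of -1.30, and Ccn5 had -1.01. Rnf43 and Notum, given above, are on this list too. Lef1, which is both a target and an effector, was not called at 90.8 and 84.0 against 54.9 and 75.2. Nkd1, the paralogue of Nkd2, was under the filter at 46.3 and 32.8 against 9.15 and 19.8, a log2 difference of -0.88, and without the filter it was not called (adjusted p = 0.0685 by limma). Lgr5, also under the filter, read 9.56 and 8.85 against 38.8 and 24.6 and was called higher without it (adjusted p = 0.0423 by limma). Sp5 and Tnfrsf19, the other targets under the filter, were not called there.

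The arrays themselves were even within a genotype. Pearson's r over the log2 values of the 11056 tested genes was 0.991 within each genotype and 0.860 to 0.861 between genotypes (genes are not independent replicates). All 9 fibroblast markers were tested, 6 called higher and 2 lower in SMRTmRID, where 65.2% of all tested genes were called. Their summed signal was 60813 to 62348 in wild-type and 76202 to 80520 in SMRTmRID, but some single markers differed far more. Thy1 read 20.6 and 6.57 on the wild-type arrays against 3172 and 3184, and Pdgfra 247 and 262 against 4828 and 5090. Lum read 3.25 and 3.05 against 190 and 176, while Vim and Fn1 were the 2 called lower. Thy1 and Lum of that list were under the filter on both wild-type arrays. The 5 cartilage markers summed to 2815 to 2923 in wild-type and 371 to 406 in SMRTmRID, a fall carried by Col2a1 (2555 and 2703 against 46.1 and 29.3, called lower). Without it the other 4 summed to 220 to 260 and 325 to 377, and Sox9 was called higher. Col9a1, with a mean under the filter, read 7.58 and 12.3 against 49.0 and 63.4. It was called higher without the filter (limma, adjusted p = 0.00572). The 6 epithelial markers summed to 309 to 329 and 241 to 255 (1 of 2 tested called lower), and the 5 blood cell markers to 185 to 368 and 330 to 340 (1 of 3 tested called higher). The epithelial marker Cdh1, with a mean under the filter, read 55.9 and 42.3 against 2.41 and 1.61. It was called lower without the filter (limma, adjusted p = 0.00148), and Krt8, Krt18 and Krt14 were not called there. The 5 endothelial markers summed to 73.3 to 78.5 and 74.8 to 80.5, and the 3 named mature adipocyte markers, all under the filter, to 12.4 to 19.3 and 21.6 to 28.4. The 4 muscle markers summed to 47.2 to 79.3 and 87.6 to 107. The 1 tested, Ckm, was not called, while Myog (2.92 and 1.88 against 18.5 and 21.2) and Des were under the filter and called higher without it (limma, adjusted p = 0.0134 and 0.0412). Of 3 named markers of glia and neural crest (92.2 to 107 and 119 to 140) the 2 tested were not called. Their part in the Wnt differences was not tested, and in bulk RNA fewer cells of a type and less RNA per cell cannot be told apart.

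**Figure D5:**
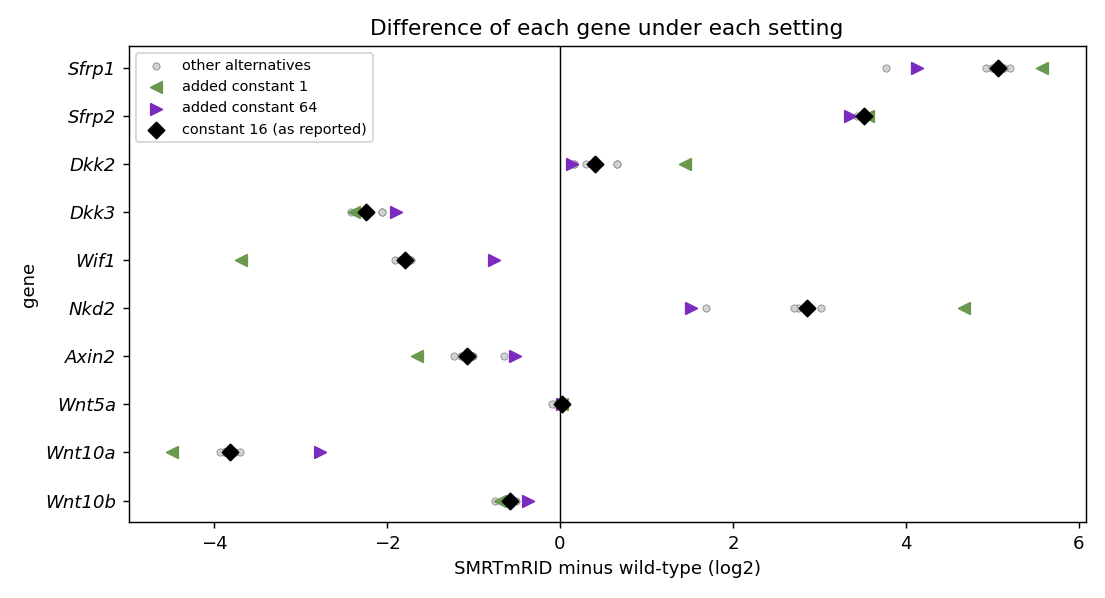
Log2 difference of each of the 10 genes as reported (black diamonds), with added constants of 1 and 64 (triangles) and under the other alternatives (grey). Every gene but Wnt5a keeps its sign under the alternatives that gave it a value, and the spread is widest for Wif1 and Nkd2, each close to 0 signal in one genotype.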

How the data were processed

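The values deposited by the authors are linear intensities, 1 for each probe set on each array, and are MAS5 signals per the submitters' processing notes; each array had the same mean of 200.0 without its lowest and highest signals, so the authors had scaled them. Detection calls were not used. Of 45101 probe sets 64 controls were left out, 34945 had 1 gene symbol, 932 several and 9160 none here. Names came from GEO's platform annotation, updated for 34741 probe sets through a RefSeq table of GRCm38.p6.

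Genotypes were taken from the sample titles. Each gene's probe set with the highest mean signal was transformed to log2(signal + 16) and fitted with limma 3.58.1 in R 4.3.3 (lmFit, eBayes with trend, all 4 arrays, no covariates). The fit was checked on simulated data. P-values are two-sided; SE are moderated. Pathway genes named are up to 3 called rises and 3 called falls per list, plus others chosen after their values were seen. The 10 genes and the lists were chosen with earlier results of these data known. Alternatives are in the closing section. Figures used matplotlib 3.10.9. The number of arrays limits the precision.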

Additional observations from a re-analysis of the deposited data

How the results depend on the processing

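Under 14 alternatives Sfrp1, Sfrp2, Dkk3 and Wnt10a kept their direction and call in each, and Nkd2 in the 13 that tested it. Wnt10b lost its call without the filter (-0.57, adjusted p = 0.0734 by limma) and, with values between -0.58 and -0.51, when either wild-type array or SMRTmRID replicate 2 was left out. Wnt5a, never called, turned sign with quantile normalization (-0.059), the mean of its probe sets (-0.0974) and without wild-type replicate 1 (-3.00e-04) or SMRTmRID replicate 1 (-0.0074), the range over single arrays left out ending at 0.0541. Of the untested genes, Dkk2 moved to 1.44 with an added constant of 1. Wif1 moved to -3.69 with 1, -0.76 with 64 and -1.90 with quantile normalization, and Axin2 to -1.66, -0.52 and -1.23, and to -0.64 for the mean of its probe sets. Of the pathway genes, Fzd2 turned to 0.0342 for the mean of its probe sets, and 13 of 42 named lost their call under 1 or more alternatives. Without the filter, 6839 of 18193 genes were called. The labels do not say whether same-numbered arrays were paired. Their deviations correlated at 0.0121, a value that shows no strong shared shift but cannot tell whether they were handled together. With the replicate number as a block 7418 of 11056 genes were called. So were 6 of the 7 tested genes of the set and 62 of 80 pathway genes. When 1 array was left out the counts were 6565 to 6605, 5 to 6 and 52 to 55. The cause of these changes was not tested. Signals near 0 carry no order. Small differences such as that of Fzd1 (-0.16) were called as reported but lost under some alternatives. The labels do not say whether the 2 arrays of a genotype measure any spread between lines.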
